A study of Homo sapiens with 6 samples.

Results

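The miR-548 family was read in small RNA libraries of exosomes, which are nanometre-scale vesicles secreted by cells, purified from the medium of HaCaT, an established line of human skin keratinocytes. Members are the known miRNAs whose name starts with hsa-miR-548, which gave 7 of the 161 known miRNAs listed and 7 of 276 known and predicted miRNAs together. None of the 115 predicted miRNAs carried the name of a miR-548 from any species (0 of 115). The compared groups were exosomes of cells given 0.4 mM hydrogen peroxide (H2O2), an oxidant, and exosomes of untreated cells, with 3 libraries each. All libraries came from 1 line, whose genotype field reads "With type", from exosomes isolated by ultracentrifugation, and the labels call the replicates biological without saying how they were separated. The labels put the H2O2 libraries of replicates 1, 2 and 3 at 24, 25 and 26 h, whereas the design text names 24 h, so time and replicate cannot be told apart.

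The miR-548 hairpins derive from MADE1, a short transposable element with inverted terminal repeats, whose transcripts fold back on themselves. The family is found in primates, and its many near-identical hairpins are scattered over the chromosomes. A mature miRNA is 1 strand of such a hairpin (5p or 3p), loaded into an Argonaute protein, and it finds mRNAs mainly through its seed, bases 2 to 8. Members whose sequences differ by 1 base in the seed, or whose 5′ ends are offset by 1 base, can therefore have different targets.

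The tables hold only miRNAs that the authors selected as different between these same libraries. In the authors' deposited table p reached at most 0.0490 after rounding, and log2 fold changes were at least 1.03 in size. The direction of each member was thus largely fixed by the selection, and members that were not selected were not analysed here. Library totals were 2449856 to 4131478 reads in H2O2 and 2644362 to 5405525 reads in untreated exosomes. A level in CPM is the count divided by that total and scaled to 1000000 reads. The 7 members together had 181 counts in the H2O2 libraries and 528 counts in the untreated libraries.

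Mature sequences of 3 of the 7 members were in the RefSeq table (GRCh38.p14), and they are shown because their seeds and overlaps decide what a count stands for. They are given 5′ to 3′ with the seed in capitals, beside the sequences with the longest overlap with miR-548ai and miR-548n, and the other strand of the miR-548e hairpin.
miR-548ai: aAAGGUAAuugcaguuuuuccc
miR-570-5p: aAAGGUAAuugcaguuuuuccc
miR-548n: cAAAAGUAauuguggauuuugu
miR-548ab: aAAAGUAAuuguggauuuugcu
miR-548t-5p: cAAAAGUGaucgugguuuuug
miR-548e-5p: cAAAAGCAaucgcgguuuuugc
miR-548ai lies at chr6:99124624-99124645 (plus strand), outside any other gene of GENCODE 29. miR-570-5p, from a MADE1-derived hairpin with another name, lies at chr3:195699425-195699446 (plus strand), in an intron of the long non-coding RNA MUC20-OT1. The 2 sequences were identical over all 22 bases, and so were their deposited counts in every library. A predicted miRNA also had these counts, so 3 listed rows hold the same counts. Reads of this sequence cannot be placed at the chromosome 6 or the chromosome 3 locus.

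The inverted repeat is visible in the hairpin of MIR570 (chr3:195699401-195699497, plus strand, GRCh38.p14), shown because it holds the bases counted as miR-548ai, with the 5p and 3p strands in capitals.
MIR570: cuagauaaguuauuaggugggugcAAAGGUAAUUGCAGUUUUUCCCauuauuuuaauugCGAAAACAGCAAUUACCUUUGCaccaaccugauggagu
Its 2 strands share an uninterrupted complementary run of 12 bases. miR-548n lies at chr7:34940804-34940825 (minus strand), in an intron of DPY19L1, which encodes a C-mannosyltransferase. It shares a run of 20 bases with miR-548ab (chr3:103524085-103524106, minus strand), offset by 1 base. The offset gives them different seeds, AAAAGUA for miR-548n and AAAGUAA for miR-548ab. The seed of miR-548ab is the commonest in the family, held by 11 of the 55 miR-548 names in the RefSeq table, and those 55 names carry 29 different seeds. miR-548t-5p lies at chr4:173268169-173268189 (plus strand), in an intron of GALNT7, an enzyme of mucin-type O-glycosylation. The longest uninterrupted run it shared with another family name in the RefSeq table was 10 bases. That table holds only 3 of the 7 members, and a run ends at any mismatch. How far miR-548t-5p stands from its relatives therefore cannot be read from these runs. Its seed AAAAGUG was held by no other miR-548 name in that table.

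The family is rich in A and U. The median share of G and C was 33.3% over the 55 miR-548 names, against 52.2% over 2315 other human mature names and 50% over the 133 other known miRNAs listed here that have a sequence. The run UAAUUG, or its reverse complement CAAUUA, was in 38.2% of the miR-548 names and in 0.389% of the other human names. It is present in miR-548ai and miR-548n and absent from miR-548t-5p and miR-548e-5p.

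The other members come from several chromosomes. The hairpin of miR-548e-3p, MIR548E, lies on chromosome 10 at 110988926 to 110989013 (GRCh38, GENCODE 29), in an intron of SHOC2, a scaffold protein of RAS-ERK signalling. That of miR-548ay-5p lies on chromosome 3 at 32506283 to 32506389, outside other genes, and that of miR-548az-5p lies on chromosome 8, also outside other genes. miR-548i has 4 hairpin genes, on chromosomes 3, 4, 8 and X, and no single locus can be named for its reads. The members share no host gene, and 3 lie in introns of 3 different protein-coding genes on the same strand (miR-548e-3p, miR-548n and miR-548t-5p).

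In exosomes of H2O2-treated cells, levels in CPM of miR-548e-3p, miR-548n and miR-548az-5p were lower than in exosomes of untreated cells. These 3 of the 5 members with enough counts passed the test. miR-548ay-5p, also lower, and miR-548i, higher, did not pass. The test was edgeR's quasi-likelihood test, fitted to the 186 rows that reached 5 counts in 3 or more libraries. A member passed when its Benjamini-Hochberg adjusted p was under 0.05. The p-values measure only the spread between these libraries. Every row tested had already been selected by the authors on these same libraries, so passing is not independent evidence of a difference. When the adjustment assumed 2000 miRNAs, 0 members passed. The share of all 127 tested known miRNAs that fell was 48%, and the share that rose was 30.7%. Over all 186 rows, known and predicted, 42.5% fell and 37.6% rose. With 5 members, 3 falls and 0 rises are not set apart from these shares. Scaling moved this split of known miRNAs: 61 fell and 39 rose as reported, 42 fell and 45 rose with library totals that leave out miR-1246, and 66 fell and 24 rose with median-of-ratios scaling. At an unadjusted p under 0.05 the number higher was 0 with edgeR, 0 with DESeq2 and 0 with limma. It was 1 in 4 alternative edgeR runs, and no such member passed after adjustment. The member was miR-548i without miR-1246 in the totals, without H2O2 replicate 1 and without untreated replicate 1, and miR-548ai with no count filter. The tested members had a median log2 fold change of -1.49, against -1.23 over all tested known miRNAs and 1.03 over all 186 rows, known and predicted. Rows near 0 were left out by the selection, so such a median shows mainly which direction holds more rows. Less of a miRNA per exosome and fewer exosomes that carry it cannot be told apart in such libraries. A level in CPM is a share of the reads of a library. More reads of other RNAs therefore cannot be told apart from these readings either.

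miR-548e-3p had the highest mean level over the 6 libraries and in untreated exosomes, while in H2O2 exosomes miR-548ay-5p was higher, at a mean of 5.71 CPM against 3.96 CPM. The level of miR-548e-3p was 1.62, 7.35 and 2.90 CPM in H2O2 replicates 1, 2 and 3, against 19.9, 30.6 and 15.9 CPM in untreated replicates 1, 2 and 3. Every H2O2 library was below every untreated library, and replicate 2 was the highest library of each group. Mean levels were 3.96 ± 3.00 CPM in H2O2 and 22.2 ± 7.61 CPM in untreated exosomes (SD, n = 3 each). The log2 fold change was -2.50 ± 0.64 (SE; edgeR adjusted p = 0.0143), and 3 of the 127 tested known miRNAs had a lower one. Without H2O2 replicate 1 it was -2.13 and no longer passed (edgeR adjusted p = 0.0565), and without H2O2 replicate 2 it was -3.24. With limma on log2(CPM + 5) it was -1.61 and passed. A predicted miRNA had counts within 2 of those of miR-548e-3p in every library (5, 18 and 11 in H2O2, 61, 81 and 84 in untreated replicates), so the 2 rows cannot be treated as independent.

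**Figure D1:**
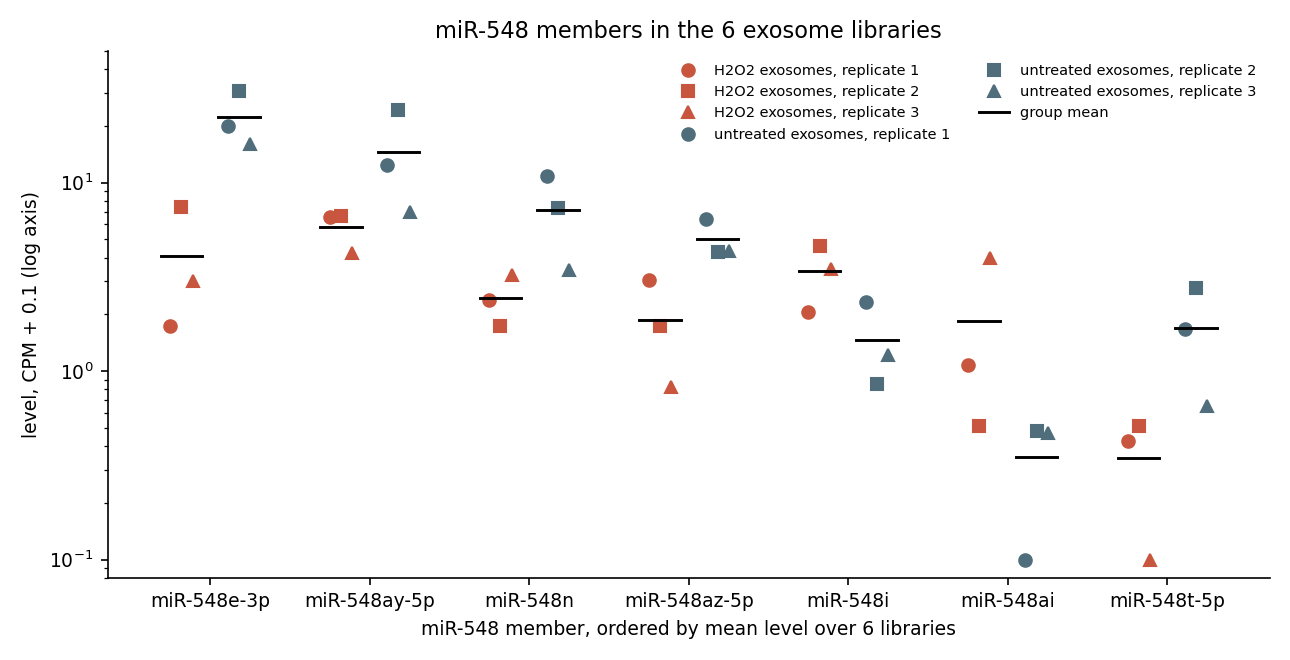
Level of each of the 7 miR-548 members in each library, as CPM + 0.1 on a log axis; points are libraries, shapes are replicates, and black lines are means of 3 libraries. The H2O2 points of miR-548e-3p lie at 1.62 to 7.35 CPM, below its untreated points at 15.9 to 30.6 CPM, while miR-548i overlaps between groups.

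miR-548ay-5p was second in mean level over the 6 libraries. It stood at 6.50, 6.53 and 4.11 CPM in H2O2 replicates 1, 2 and 3, against 12.3, 24.2 and 6.84 CPM in untreated replicates 1, 2 and 3. The groups did not overlap, but the lowest untreated library, replicate 3, was close to the highest H2O2 library. Means were 5.71 ± 1.38 CPM in H2O2 and 14.5 ± 8.87 CPM in untreated exosomes (SD, n = 3 each). The log2 fold change of -1.33 ± 0.58 missed the threshold (edgeR adjusted p = 0.0554). Leaving out untreated replicate 3 gave -1.68, which passed (edgeR adjusted p = 0.0284), and leaving out untreated replicate 2 gave -0.74. It also passed with TMM and with median-of-ratios scaling (edgeR adjusted p = 0.0431 and 0.0255), with at least 20 counts (0.0468) and with DESeq2 (0.00519). The TMM, median-of-ratios and DESeq2 scalings were computed from the selected rows alone, without rows near 0 to rest on. Passing with them is therefore not separate support for a fall.

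miR-548n, whose sequence overlaps miR-548ab, was at 2.27, 1.63 and 3.15 CPM in H2O2 replicates 1, 2 and 3, against 10.7, 7.19 and 3.33 CPM in untreated replicates 1, 2 and 3. Untreated replicate 3 lay just above H2O2 replicate 3, at 18 counts against 13 counts but in a larger library. The log2 fold change was -1.53 ± 0.60 (edgeR adjusted p = 0.0417). It passed without untreated replicate 3 (-1.88, edgeR adjusted p = 0.0224). It did not pass without any other single library, with edgeR adjusted p of 0.0998, 0.0964 and 0.0603 without H2O2 replicates 1, 2 and 3, and 0.143 and 0.0835 without untreated replicates 1 and 2. Nor did it pass with totals that leave out miR-1246 (-1.31, edgeR adjusted p = 0.0634).

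miR-548az-5p was at 2.92, 1.63 and 0.726 CPM in H2O2 replicates 1, 2 and 3, against 6.32, 4.16 and 4.25 CPM in untreated replicates 1, 2 and 3. The groups did not overlap, and the 3 untreated libraries lay close together. The log2 fold change was -1.49 ± 0.61 (edgeR adjusted p = 0.0476), just inside the threshold. It passed in none of the 6 runs without 1 library, where edgeR adjusted p was 0.0555 to 0.132. Without H2O2 replicate 1 the log2 fold change was -2.10 (edgeR adjusted p = 0.0565). It also did not pass without the miR-1246 reads (-1.36, edgeR adjusted p = 0.0543).

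miR-548i was the member whose groups overlapped. It was at 1.95, 4.49 and 3.39 CPM in H2O2 replicates 1, 2 and 3, against 2.21, 0.756 and 1.11 CPM in untreated replicates 1, 2 and 3. Untreated replicate 1 was above H2O2 replicate 1. These levels rest on 6, 11 and 14 counts in H2O2 and 7, 2 and 6 counts in untreated replicates. The log2 fold change was 1.24 ± 0.62 and did not pass (edgeR adjusted p = 0.0817), nor did it in any of the 17 alternatives that could be run.

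**Figure D2:**
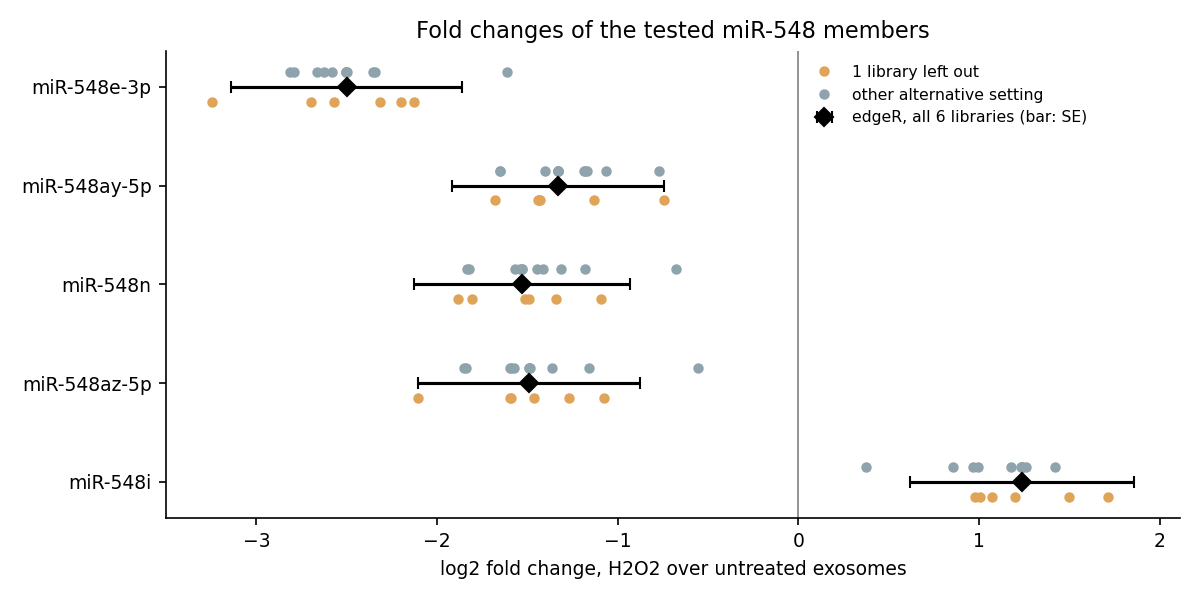
Log2 fold change of the 5 tested members, H2O2 over untreated exosomes: black diamonds with SE bars are the edgeR fit on 6 libraries, orange points leave out 1 library, and grey points are other alternatives. miR-548e-3p lies lowest at -2.50, and no point of any member crosses 0. The selection of the rows had largely fixed these directions.

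The other members, miR-548ai and miR-548t-5p, did not reach the count minimum and were not in the test. miR-548ai had 3, 1 and 16 counts in H2O2 replicates 1, 2 and 3, against 0, 1 and 2 counts in untreated replicates 1, 2 and 3. H2O2 replicate 3 held 16 of the 20 H2O2 counts, and the groups stayed apart by the difference between 0.408 CPM in H2O2 replicate 2 and 0.378 CPM in untreated replicate 2, a single count in each. The ratio of summed counts per read, H2O2 over untreated, was 7.74, with an exact 95% interval of 2.30 to 40.7 that covers counting error only. Without H2O2 replicate 3 it was 2.70, with an interval of 0.457 to 18.5, and without untreated replicate 3 it was 12.0. In H2O2 replicate 3 miR-1246 made up 27.4% of the reads, against 3.32% and 0.261% in H2O2 replicates 1 and 2 and 0.130% to 1.15% in untreated libraries. Its part in the miR-548ai count was not tested.

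miR-548t-5p had the lowest mean level over the 6 libraries, although miR-548ai was lower in untreated exosomes. It had 1, 1 and 0 counts in H2O2 replicates 1, 2 and 3, against 5, 7 and 3 counts in untreated replicates 1, 2 and 3. All untreated libraries were above all H2O2 libraries. The ratio of summed counts per read was 0.155 (exact 95% interval 0.0172 to 0.666), 0.270 (0.0300 to 1.16) without H2O2 replicate 3 and 0.222 (0.0229 to 1.11) without untreated replicate 2, with an interval of 0.0109 to 0.450 without untreated replicate 3. With no count filter, the edgeR log2 fold change was 2.66 ± 1.21 for miR-548ai (adjusted p = 0.0572) and -2.62 ± 1.23 for miR-548t-5p (adjusted p = 0.0624), and neither passed. Over the 7 members, groups did not overlap for 5 that were lower and 1 that was higher in H2O2 exosomes. The share of the 161 known miRNAs listed was 46.6% without overlap and lower, and 37.3% without overlap and higher. Among miRNAs that the authors listed as lower 91.5% did not overlap, as did 5 of 5 members, and among those listed as higher 75.9%, as did 1 of 2 members.

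The summed level of the 7 members was 16.6, 22.5 and 18.2 CPM in H2O2 replicates 1, 2 and 3, against 53.1, 70.0 and 32.4 CPM in untreated replicates 1, 2 and 3. The means were 19.1 ± 3.05 CPM in H2O2 and 51.8 ± 18.8 CPM in untreated exosomes (SD, n = 3 each), and the log2 ratio of -1.44 was between -1.17 and -1.69 without any single library. The make-up of these counts also differed. miR-548e-3p was 9.80%, 32.7% and 16.0% of the miR-548 counts in H2O2 replicates 1, 2 and 3, against 37.5%, 43.8% and 49.1% in untreated replicates 1, 2 and 3. The exact 95% intervals ran from 3.26% to 21.4%, 20.7% to 46.7% and 8.55% to 26.3% in the H2O2 libraries. In the untreated libraries they ran from 30.2% to 45.3%, 36.5% to 51.3% and 41.5% to 56.8%. These shares were not tested.

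A ratio of 2 members within a library does not depend on the library total. The ratio of miR-548e-3p to miR-548ay-5p counts was 0.250, 1.13 and 0.706 in H2O2 replicates 1, 2 and 3, against 1.62, 1.27 and 2.32 in untreated replicates 1, 2 and 3. These groups did not overlap, although H2O2 replicate 2 was near untreated replicate 2. The ratio of miR-548i to miR-548ay-5p was 0.300, 0.688 and 0.824 in H2O2, against 0.179, 0.0313 and 0.162 in untreated replicates 1, 2 and 3. Here the H2O2 libraries were all above the untreated ones. The ratio of miR-548e-3p to miR-548n overlapped between the groups, at 0.714, 4.5 and 0.923 in H2O2, against 1.85, 4.26 and 4.78 in untreated replicates 1, 2 and 3. These ratios are descriptions of rows selected on the same libraries and were not tested.

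**Figure D3:**
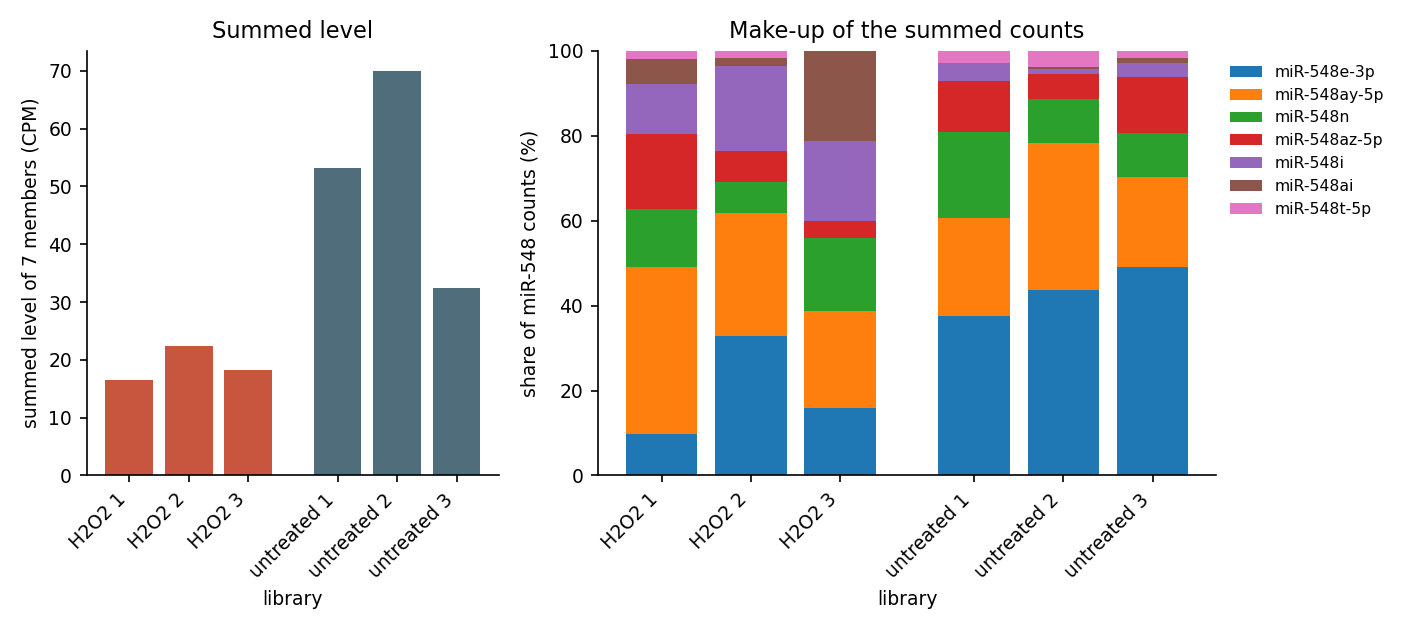
Left, summed level of the 7 members in CPM for each library. Right, share of each member in the miR-548 counts of that library, in percent. The H2O2 bars on the left reach 16.6 to 22.5 CPM and the untreated bars 32.4 to 70.0 CPM, and the miR-548e-3p share on the right is 9.80% to 32.7% in H2O2 and 37.5% to 49.1% in untreated libraries.

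In abundance the members ranked 70 (miR-548e-3p), 76 (miR-548ay-5p), 95 (miR-548n), 107 (miR-548az-5p), 122 (miR-548i), 137 (miR-548ai) and 141 (miR-548t-5p) of the 161 known miRNAs listed, by mean CPM over the 6 libraries. The median known miRNA had 8.59 CPM. The order of neighbouring members was not firm: in H2O2 exosomes miR-548ay-5p was above miR-548e-3p in replicates 1 and 3 and below it in replicate 2.

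**Figure D4:**
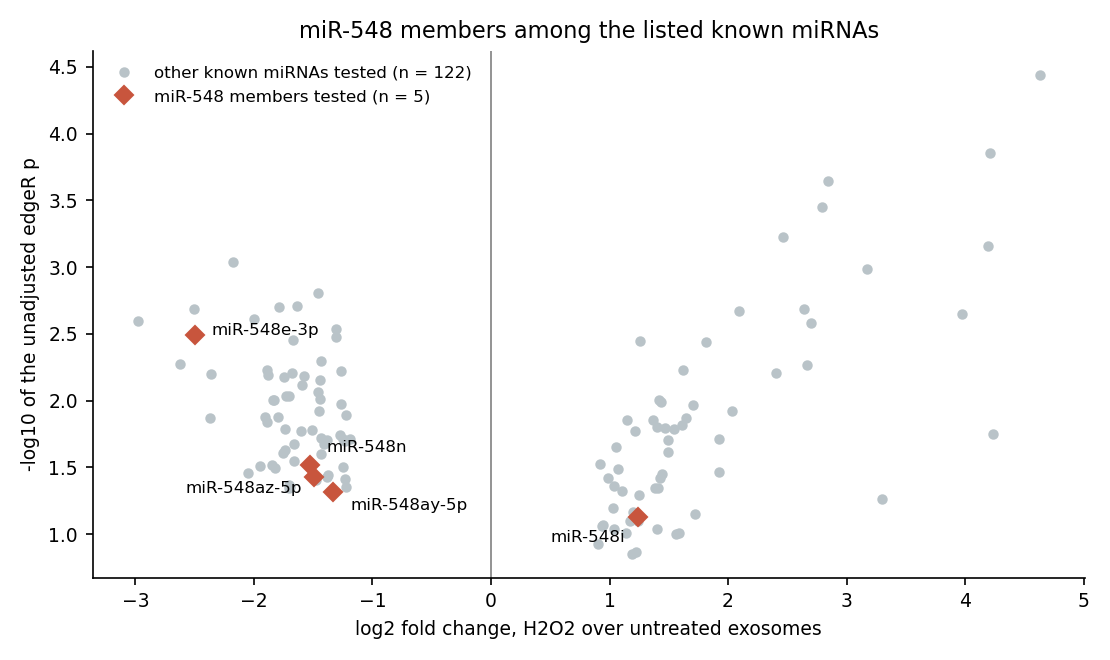
Log2 fold change (H2O2 over untreated exosomes) against -log10 of the unadjusted edgeR p for the 127 tested known miRNAs, with the 5 miR-548 members in red. miR-548e-3p lies among the lowest fold changes at -2.50, and miR-548i is the 1 member with a positive fold change, at 1.24.

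Of the other MADE1-derived hairpins, miR-570, miR-579 and miR-603, only miR-570-5p was listed, with the counts it shares with miR-548ai. Of 28 hairpins known to derive from other interspersed repeats, 9 rows were listed and 7 had enough counts, of which 2 rose, 3 fell and 2 did not pass, with a median log2 fold change of 0.94. The rises were miR-151a-5p (LINE-2-derived) at 1.21 ± 0.42 (edgeR adjusted p = 0.0285) and miR-582-5p at 2.79 ± 0.51 (edgeR adjusted p = 0.00728). The falls were miR-95-3p, also LINE-2-derived, at -1.75 ± 0.50 (edgeR adjusted p = 0.0204), miR-224-5p at -1.28 ± 0.45 (0.0293) and miR-1303 at -1.23 ± 0.51 (0.0485). miR-151b, at 1.25 ± 0.56 (edgeR adjusted p = 0.0588), and miR-584-3p, at 0.94 ± 0.49 (0.0904), did not pass. miR-1268a and miR-1268b were below the count minimum.

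The 3 known miRNAs most like miR-548e-3p over the 6 libraries were miR-451a, a red blood cell miRNA, miR-205-3p, a strand of an epithelial hairpin, and miR-6747-3p. Likeness was the root mean square distance between log2(CPM + 1) profiles, each centred on its own mean, and it was 0.460, 0.476 and 0.498, against a median of 1.38 over 154 known miRNAs outside the family. The profiles include the difference between groups, and these 154 hold rows selected as lower and rows selected as higher. Sharing the direction of miR-548e-3p by itself makes a row closer, so the likeness partly restates the selection. miR-451a was at 1.62, 5.31 and 1.94 CPM in H2O2 replicates 1, 2 and 3, against 7.90, 12.1 and 10.2 CPM in untreated replicates 1, 2 and 3. Like miR-548e-3p it was highest in replicate 2 of each group. The distance of miR-548e-3p to miR-548t-5p, its nearest relative by this measure, was 0.83, and to miR-548ay-5p 0.84, and each would have ranked 39 among the known miRNAs outside the family.

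Of 8 blood cell and serum miRNAs, 5 were listed and all 5 fell, where 48% of the 127 tested known miRNAs fell. Listed rows had been selected as different, and the marker lists were chosen with earlier results known. The summed level of these 5 was 76.7 to 447 CPM in H2O2 and 510 to 1294 CPM in untreated exosomes, lower in H2O2 exosomes like miR-548e-3p, miR-548n and miR-548az-5p. That sum was mostly miR-16-2-3p, at 61.5 to 422 CPM in H2O2 and 444 to 1120 CPM in untreated exosomes. By contrast, miR-451a was at 1.62 to 5.31 CPM in H2O2 and 7.90 to 12.1 CPM in untreated exosomes. The part of these 5 miRNAs in the miR-548 values was not tested. Of 9 keratinocyte miRNAs only miR-31-3p was listed, at 551 to 592 CPM in H2O2 and 36.7 to 191 CPM in untreated exosomes. Selected rows do not let the keratinocyte origin be checked further. Of 4 muscle miRNAs 2 were listed, with a summed level of 1.95 to 211 CPM in H2O2 and 2.59 to 12.9 CPM in untreated exosomes, and 0 passed. The high end was H2O2 replicate 2 alone, where miR-1-3p was at 197 CPM, against 1.95 and 3.63 CPM in H2O2 replicates 1 and 3. Of 3 neural names all 3 were listed, in 4 rows, at 3897 to 5520 CPM in H2O2 and 1768 to 2271 CPM in untreated exosomes. That sum was almost wholly miR-9-5p, at 3887 to 5505 CPM in H2O2 and 1745 to 2252 CPM in untreated exosomes. It rose, while miR-219a-1-3p fell.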

How the data were processed

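Small RNA libraries of HaCaT exosomes were prepared with NEBNext reagents from Trizol-extracted RNA, per the labels' protocols. Per the submitters' processing notes Bowtie 1.1.1 was among the tools, beside cutadapt, FastQC and bcl2fastq. Not given in the sources used here: genome build, miRNA catalogue, counting rule and handling of reads matching several miRNAs. The authors' tables hold, per the file headers, raw counts, a normalized value, a log2 fold change, a fold (ratio) and an unadjusted p-value. The normalized value deposited by the authors is CPM: count divided by it gave 1 total per library, used as library size. The rows are the authors' selection, so adjusted p-values understate the number of miRNAs examined.

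All listed rows, known and predicted, were fitted with edgeR 4.0.16 (R 4.3.3; estimateDisp, glmQLFit, glmQLFTest, two-sided), group only, no composition factor. SE is the fold change over the root of F. The procedure was tested on simulated data: of 73 tested rows changed 4-fold, 90.4% were called, with 4 calls among 134 unchanged rows. The simulated dispersion (spread beyond counting error) was 0.1. It was not matched to the miR-548 rows, so these shares need not hold for them. Alternatives used TMM or median-of-ratios scaling, totals without the reads of the known miR-1246 row, a minimum of 20 counts or none, the replicate number as a block, DESeq2 1.42.0, limma 3.58.1 on log2(CPM + 1, 0.1 or 5), 1 row per set of identical counts, adjustment as if 2000 miRNAs had been tested, and each library left out. The TMM, median-of-ratios and DESeq2 scalings were computed from listed rows alone, all of them selected as different. Every miR-548 row was named. The members and lists were chosen with earlier results of these data known. The repeat list and markers were matched by hairpin name, with either strand counted unless a strand was named. Sequences are from RefSeq (GRCh38.p14) and hairpin genes from GENCODE 29 (GRCh38), not a build stated for the counts. PCR reads carry no molecular identifiers, so intervals cover counting error only.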

Additional observations from a re-analysis of the deposited data

How the results depend on the processing

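Every tested member kept its direction in every alternative in which it could be fitted (17 or 18 each), and counts as low as these limit all of them. The authors' selection on these same libraries had largely fixed the directions, so keeping them is not evidence of a stable difference. Without miR-1246 in the library totals, with no filter, or with limma at a pseudocount of 5, the number of members that fell was 1 in place of 3, and adjusted as if 2000 miRNAs had been tested it was 0. It was 0 to 3 when 1 library was left out, with 0 without H2O2 replicate 1, 3 without untreated replicate 3 and 1 in the other runs. The number that rose was 0 in each. Of all known miRNAs, 61 fell and 39 rose; adjusted as if 2000 had been tested 0 fell and 2 rose (edgeR), while 24 rose with median-of-ratios scaling. When 1 library was left out 3 to 41 fell and 8 to 39 rose, fewest without H2O2 replicate 1. The median over rows of the shift in log2 fold change was -0.28 with median-of-ratios scaling and 0.17 when miR-1246 reads were left out. The cause of the lost calls was not tested. With the replicate block 2 members fell: miR-548n was lost (edgeR adjusted p = 0.0561). Deviations from the group means of same-numbered libraries correlated at 0.197, 0.0775 and 0.227. Differently numbered libraries were not compared in this way, so these values cannot decide whether the numbers mark pairs. The main fit did not use the numbers as pairs.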
